A study of Mus musculus with 12 samples.

Results

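The genes described here are 41 mouse genes of the ATF4 pathway and of amino acid supply: 8 transcription factors and stress regulators, 8 enzymes of amino acid and one-carbon metabolism, 5 amino acid transporters and 20 cytosolic tRNA synthetase genes. They are named by symbol in the rule, among the 23366 genes of the deposited tables. The list was chosen with earlier results of these data known. All 41 had a row in each of the 3 tables, and all 41 had 10 or more normalized reads in at least 2 libraries of each table, the filter for testing.

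RNA-seq was done on Beko cells, a mouse pre-T cell line, in 3 experiments that each had their own controls. DAPT, a gamma-secretase inhibitor that blocks Notch cleavage, was given at 10 µg/ml for 24 h, against DMSO for 24 h. Apicidin, an inhibitor of histone deacetylases, was given at 0.01 µg/ml for 24 h, against a separate DMSO group, also for 24 h. A short hairpin against Hdac3 (shHdac3) was compared with a scrambled hairpin, both marked 96 h post-puro. All 6 groups had 2 libraries and came from the same cell line in IMDM medium containing nonessential amino acids, insulin, peptone and FCS. The sample descriptions carry a single hairpin name (Sh1), while other labels speak of shRNAs against Hdac3 in the plural, so whether more than 1 hairpin was used is not known. The labels do not state whether a group's libraries are separate cultures, so the p-values describe the spread among libraries that may be technical repeats.

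ATF4 is a bZIP transcription factor whose messenger RNA is translated more efficiently when the initiation factor eIF2alpha is phosphorylated, as happens when amino acids run short or the endoplasmic reticulum is stressed. It binds C/EBP-ATF response elements and is known for activating genes that make, import and charge amino acids. Its protein is controlled largely at translation, which RNA-seq does not measure. Cytosolic tRNA synthetases attach each amino acid to its tRNA, and many of their genes are ATF4 targets. Early thymocytes and leukaemic T cells take up large amounts of amino acids, and Notch signalling is known to drive growth and metabolic genes in them.

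Reads on gene symbols were 37237080 to 42815304 per library in the DAPT experiment, 21766984 to 29652001 in the apicidin experiment and 24673559 to 29004315 in the shHdac3 experiment. The 41 genes took 0.525% to 0.706% of these reads, and genes of the Hist family took 15.4% to 21.4%. Hdac3 had 774 and 819 normalized reads in the shHdac3 libraries, against 2012 and 1930.1 in the scrambled libraries. All 10 pre-T markers had 10 or more normalized reads in at least 2 libraries of each table, and Rag1, a V(D)J recombinase gene of immature lymphocytes, had 41720.1 and 42519 normalized reads in the DAPT libraries, against 59768 and 63296 in the DMSO libraries. Within the pre-T list the coreceptor genes went the other way with DAPT: Cd4 had 10781 and 10935 normalized reads in the DAPT libraries, against 7813 and 7941 in the DMSO libraries, and Cd8a had 3895 and 3830 in the DAPT libraries, against 2835 and 2778 in the DMSO libraries. The summed level of the 10 pre-T markers, of which Rag1 is the largest part, was 96273 to 97341 normalized reads with DAPT, against 127146 to 130801 with DMSO. It was 50495 to 51071 with apicidin, against 78788 to 79042 with DMSO, and 55253 to 56266 with shHdac3, against 82611 to 82809.7 with the scrambled hairpin. Of 6 myeloid markers, Itgam carried nearly all of the sum, which was 472 to 536 with DAPT against 242 to 247 with DMSO, 752 to 798 with apicidin against 509 to 535 with DMSO, and 379.7 to 408 with shHdac3 against 374 to 394 with the scrambled hairpin. Summed B cell (6 genes), erythroid (3 genes) and stromal (5 genes) markers did not exceed 82.3 normalized reads in any library. The stromal sum, of which Col1a2 was the largest part with DAPT and apicidin, was 80.2 to 82.3 with DAPT against 31.3 to 36.9 with DMSO, 42.7 to 49.2 with apicidin against 22.9 to 28.4 with DMSO, and 36.0 to 40.7 with shHdac3 against 32.7 to 49.1 with the scrambled hairpin. Ms4a1, Pax5 and Ebf1 of B cells and Hbb-b1 and Hba-a1 of erythroid cells were at 0 in all 12 libraries. The part of these shifts in the results below was not tested, and in bulk RNA fewer cells of a type and less RNA per cell cannot be told apart.

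With DAPT, 33 of the 41 genes fell and 3 rose, and the summed level of the 20 tRNA synthetase genes was 22.7% lower. With shHdac3 the balance ran the other way: 26 genes rose, 4 fell, and the synthetase sum was 14.9% higher. With apicidin 5 rose, 10 fell, and the synthetase sum was 0.348% lower, within the spread of its libraries. "Rose" and "fell" are used here of genes that passed limma's test on log2(value + 1) at a Benjamini-Hochberg adjusted p of 0.05 over all genes tested. Fold changes are on that log2 scale, treated minus control, with ± for the standard error, and both groups have 2 libraries. A difference between 2 changes is a log2 difference, that of the first-named treatment minus that of the other, from 1 fit of all 12 libraries.

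These counts are read against the share of all tested genes that passed in the same direction. With DAPT 33 of 41 members fell (80.5%), where 23.1% of all 12840 tested genes fell, and 3 of 41 rose (7.32%), where 20.1% of all tested genes rose. With apicidin 10 of 41 fell (24.4%) and 5 of 41 rose (12.2%), where 19.9% and 18.2% of 12463 tested genes did so, so the share of members that fell was close to the background. With shHdac3 26 of 41 rose (63.4%), where 22.5% of 12482 tested genes rose, and 4 of 41 fell (9.76%), where 19.4% fell. The members' median log2 fold change was -0.31 with DAPT, -0.028 with apicidin and 0.21 with shHdac3, against 0.0014, 0.0016 and 0.00018 over all tested genes in the same order. The apicidin median moved to -0.062 without replicate 1 of its DMSO libraries and to -0.014 without replicate 2 of the apicidin libraries. With DESeq2 on the recovered reads 6 members fell with apicidin and 2 with shHdac3, in place of 10 and 4. By that test 1420 of 12463 genes fell with apicidin and 1393 of 12482 with shHdac3. Without replicate 1 of the apicidin libraries fewer members, and fewer of all genes, fell with apicidin. With upper-quartile scaling 2499 of all tested genes fell with DAPT, in place of 2962, and 2312 rose with shHdac3, in place of 2811. The calls that DESeq2 did not make were those of Psph and Pycr1 with DAPT, of Trib3, Psph, Mthfd2 and Slc7a1 with apicidin, and of Ddit3, Cebpb, Hars, Kars and Wars with shHdac3.

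**Figure D1:**
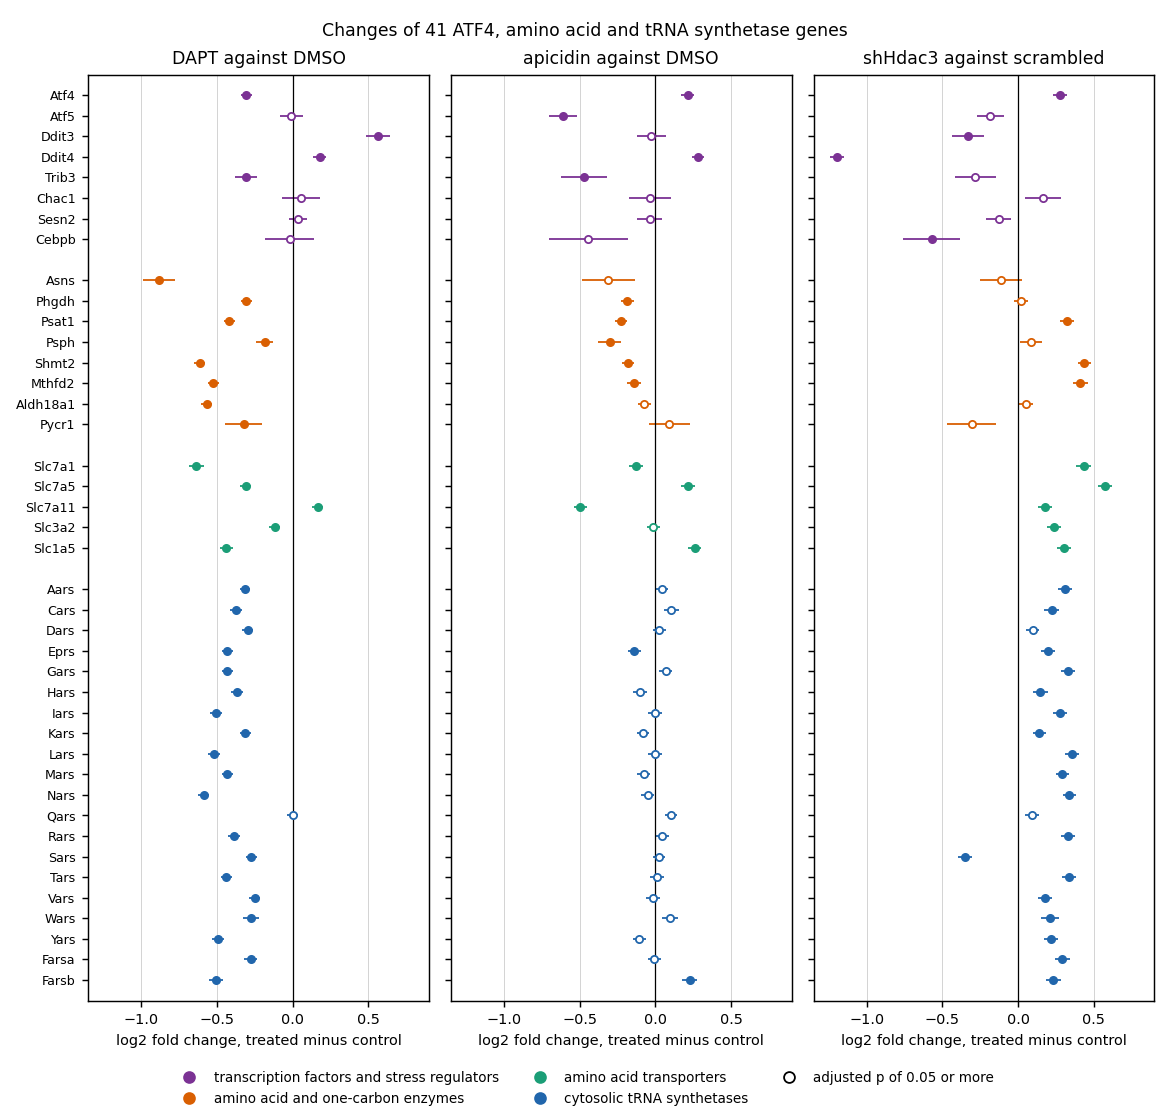
Log2 fold change of each of the 41 genes (treated minus control, bars: standard error) in the DAPT, apicidin and shHdac3 experiments, with open circles for genes that did not pass. Most enzyme, transporter and synthetase points lie left of 0 with DAPT and right of 0 with shHdac3, and 18 of 20 synthetases are open with apicidin.

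The sequences around the transcription start of members with a match to TGATGNAA, a short form of the C/EBP-ATF element that ATF4 binds, are shown because the rule groups the members around ATF4. Windows of 300 bases, 250 before the start and 50 from it, were taken from RefSeq (GRCm38.p6), where 32 of the 41 genes had an entry. TGATGNAA was found on either strand in 10 of these 32 genes (31.3%), against 4.51% of all 27025 genes in that table. By role it was in 5 of 13 synthetase genes, 2 of 8 enzyme genes, 2 of 8 regulator genes and 1 of 3 transporter genes. CACGTG, the E-box core that reads alike on both strands and shares no overlap with the TGATGNAA letters, was in 5 of 32 genes (15.6%), against 8.09% of all genes. A match is a description of letters only. The members were listed around ATF4, and the background is all genes with a RefSeq window, not only those tested here. The shares are thus no test of ATF4 binding. The 6 windows below have the largest absolute changes among the members with a match that passed with an absolute log2 fold change of 0.5 or more or that passed in opposite directions. They are written 5′ to 3′ on the gene's strand, with the match in capitals, and a match on the opposite strand appears as its reverse complement.
Asns (chr6:7693160-7693459, minus strand): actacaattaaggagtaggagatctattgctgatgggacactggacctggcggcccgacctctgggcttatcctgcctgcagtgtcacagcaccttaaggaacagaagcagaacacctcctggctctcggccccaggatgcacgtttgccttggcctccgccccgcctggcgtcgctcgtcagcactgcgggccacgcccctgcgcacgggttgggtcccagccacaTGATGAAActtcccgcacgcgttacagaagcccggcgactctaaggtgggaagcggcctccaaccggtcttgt
Iars (chr13:49681880-49682179, plus strand): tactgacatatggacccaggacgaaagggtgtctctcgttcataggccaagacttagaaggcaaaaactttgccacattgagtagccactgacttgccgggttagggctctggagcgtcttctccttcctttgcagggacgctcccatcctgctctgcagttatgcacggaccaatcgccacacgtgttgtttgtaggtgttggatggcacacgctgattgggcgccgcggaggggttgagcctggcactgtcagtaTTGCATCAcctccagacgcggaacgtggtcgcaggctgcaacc
Slc7a11 (chr3:50443564-50443863, minus strand): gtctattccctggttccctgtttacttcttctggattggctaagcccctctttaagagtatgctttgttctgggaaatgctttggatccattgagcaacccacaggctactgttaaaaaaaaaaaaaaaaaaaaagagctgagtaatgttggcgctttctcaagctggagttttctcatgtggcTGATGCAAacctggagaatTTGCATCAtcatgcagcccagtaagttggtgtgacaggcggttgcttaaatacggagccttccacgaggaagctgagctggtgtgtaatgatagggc
Yars (chr4:129189653-129189952, plus strand): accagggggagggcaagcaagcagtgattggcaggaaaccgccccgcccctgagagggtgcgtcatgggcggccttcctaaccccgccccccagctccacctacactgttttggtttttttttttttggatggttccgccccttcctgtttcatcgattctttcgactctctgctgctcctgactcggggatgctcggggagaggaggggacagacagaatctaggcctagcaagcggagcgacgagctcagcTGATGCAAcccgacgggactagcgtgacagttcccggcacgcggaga
Tars (chr15:11399609-11399908, minus strand): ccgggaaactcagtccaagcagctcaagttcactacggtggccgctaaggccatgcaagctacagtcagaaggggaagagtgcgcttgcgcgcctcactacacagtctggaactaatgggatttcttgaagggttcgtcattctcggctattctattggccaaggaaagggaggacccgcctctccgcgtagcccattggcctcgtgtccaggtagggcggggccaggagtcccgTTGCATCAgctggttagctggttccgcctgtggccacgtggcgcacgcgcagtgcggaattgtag
Gars (chr6:55037751-55038050, plus strand): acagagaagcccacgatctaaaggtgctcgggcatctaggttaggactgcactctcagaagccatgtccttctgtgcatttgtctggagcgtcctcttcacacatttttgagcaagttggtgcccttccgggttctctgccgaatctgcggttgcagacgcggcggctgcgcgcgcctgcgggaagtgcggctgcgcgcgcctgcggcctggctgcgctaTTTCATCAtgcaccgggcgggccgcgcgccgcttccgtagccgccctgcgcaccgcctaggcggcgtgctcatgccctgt
The Asns match (TGATGAAA) began 23 bases before the start of transcription and the Gars match 30 bases before it. Slc7a11 carried a pair of matches in opposite orientation, beginning 66 and 47 bases before the start, and Tars had its match 15 bases before it. In Yars and Iars the match lay just inside the transcribed part, beginning at bases 4 and 8 from the start. Slc7a5, Slc1a5, Cars, Hars, Lars, Nars, Rars, Vars and Wars had no entry.

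The 8 regulators did not move as 1 group. Atf4 itself was lower with DAPT, at 9581 ± 237 normalized reads in DAPT cells and 11844 ± 119 in DMSO cells (mean ± SD, n = 2 each). It had 9748 and 9413 normalized reads in the DAPT libraries, against 11929 and 11760.0 in the DMSO libraries (log2 fold change -0.31 ± 0.036, adjusted p = 3.6e-07). With apicidin Atf4 had 5301 and 5511 normalized reads in the apicidin libraries, against 4645 and 4678 in the DMSO libraries (log2 fold change 0.21 ± 0.041, adjusted p = 0.00055). In the hairpin experiment Atf4 had 6981 and 6631 normalized reads in the shHdac3 libraries, against 5765 and 5466 in the scrambled libraries (log2 fold change 0.28 ± 0.045, adjusted p = 1.9e-06). For Atf4, both treated libraries were under both controls with DAPT and over both controls with apicidin and shHdac3. The Atf4 change differed between DAPT and apicidin (-0.52 ± 0.057, adjusted p = 1.6e-07) and between DAPT and shHdac3 (-0.58 ± 0.057, adjusted p = 1.3e-08), while the difference between apicidin and shHdac3 did not pass (-0.064 ± 0.057, adjusted p = 0.4).

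Ddit4, which encodes the mTORC1 inhibitor REDD1 and responds to energy stress, hypoxia and glucocorticoids as well as to ATF4, had the largest change of any member. In the hairpin experiment it had 2173 and 2012 normalized reads in the shHdac3 libraries, against 4790.0 and 4776 in the scrambled libraries, 2.29-fold lower (log2 fold change -1.19 ± 0.047, adjusted p = 4.4e-26). With DAPT Ddit4 had 4360.4 and 4451 normalized reads in the DAPT libraries, against 4099 and 3698 in the DMSO libraries (log2 fold change 0.18 ± 0.045, adjusted p = 0.0024). With apicidin Ddit4 had 4397 and 4366 normalized reads in the apicidin libraries, against 3573 and 3633 in the DMSO libraries (log2 fold change 0.28 ± 0.041, adjusted p = 3.2e-05). Ddit4 was thus above its controls with both compounds and below them with the hairpin, and its change differed between DAPT and shHdac3 (1.37 ± 0.065, adjusted p = 6e-14) and between apicidin and shHdac3 (1.48 ± 0.065, adjusted p = 5.6e-14). Without replicate 2 of the DAPT experiment's DMSO libraries, the DAPT change of Ddit4 was 0.10 (adjusted p = 0.028) and still passed.

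Ddit3, which encodes CHOP, a bZIP factor of the unfolded protein and integrated stress responses, rose with DAPT, where it had 515 and 550.5 normalized reads in the DAPT libraries, against 372 and 349 in the DMSO libraries (log2 fold change 0.56 ± 0.081, adjusted p = 5.5e-06). With apicidin the values were 272 and 291 normalized reads in the apicidin libraries, against 298 and 277 in the DMSO libraries (log2 fold change -0.028 ± 0.10, adjusted p = 0.85). With the hairpin they were 229 and 249 normalized reads in the shHdac3 libraries, against 329.7 and 275 in the scrambled libraries (log2 fold change -0.33 ± 0.11, adjusted p = 0.0094). The treated Ddit3 levels were lower than both controls with shHdac3 and higher than both controls with DAPT, and the groups overlapped with apicidin. The shHdac3 call of Ddit3 was lost without scrambled replicate 1 (log2 fold change -0.20, adjusted p = 0.26), or shHdac3 replicate 1 (log2 fold change -0.27, adjusted p = 0.075). Its change differed between DAPT and apicidin (0.59 ± 0.14, adjusted p = 0.0015) and between DAPT and shHdac3 (0.89 ± 0.14, adjusted p = 9.6e-06). In the GENCODE vM21 annotation 4.73% of the exonic bases of Ddit3 lie opposite those of Mars or Gm4189, and the strand setting of the authors' counting is not given in the sources used here.

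Atf5, a bZIP relative of ATF4 that is also controlled by eIF2alpha phosphorylation, fell with apicidin, where it had 239.6 and 269 normalized reads in the apicidin libraries, against 389.7 and 387 in the DMSO libraries (log2 fold change -0.61 ± 0.093, adjusted p = 5.9e-05). With DAPT Atf5 had 502 and 551 normalized reads in the DAPT libraries, against 529 and 529.6 in the DMSO libraries (log2 fold change -0.0086 ± 0.075, adjusted p = 0.94). With the hairpin Atf5 had 361 and 339 normalized reads in the shHdac3 libraries, against 403 and 392 in the scrambled libraries (log2 fold change -0.18 ± 0.088, adjusted p = 0.089). In Atf5, both treated values lay under the lower control with apicidin and shHdac3, and the groups overlapped with DAPT. Cebpb, a bZIP partner of ATF4, had 63.8 and 63.6 normalized reads in the shHdac3 libraries, against 82.7 and 109 in the scrambled libraries (log2 fold change -0.57 ± 0.19, adjusted p = 0.012). With DAPT the Cebpb values were 87.7 and 109 normalized reads in the DAPT libraries, against 98.5 and 99.9 in the DMSO libraries (log2 fold change -0.019 ± 0.16, adjusted p = 0.94). With apicidin they were 37.2 and 49.1 normalized reads in the apicidin libraries, against 43.2 and 79.1 in the DMSO libraries (log2 fold change -0.44 ± 0.26, adjusted p = 0.2). Both treated Cebpb values lay below both controls with shHdac3, and the groups overlapped with DAPT and apicidin. The shHdac3 call of Cebpb was lost without scrambled replicate 2 (log2 fold change -0.37, adjusted p = 0.29). Cebpb passed with apicidin without the apicidin experiment's DMSO replicate 1 (log2 fold change -0.87, adjusted p = 0.0036). Of the exonic bases of Cebpb, 20.7% lie opposite Tmem189 in GENCODE vM21.

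Trib3, a pseudokinase and ATF4 target that feeds back on the pathway, fell with DAPT (log2 fold change -0.31 ± 0.074, adjusted p = 0.0016) and with apicidin (log2 fold change -0.47 ± 0.15, adjusted p = 0.02), and had a log2 fold change of -0.28 ± 0.14 with shHdac3 (adjusted p = 0.093). The apicidin call of Trib3 was lost without apicidin replicate 1 (log2 fold change -0.41, adjusted p = 0.11), or the apicidin experiment's DMSO replicate 2 (log2 fold change -0.43, adjusted p = 0.076). Chac1, a glutathione-degrading enzyme induced by ATF4, did not pass in any comparison, with log2 fold changes of 0.057 with DAPT, -0.036 with apicidin and 0.16 with shHdac3. Sesn2, a leucine sensor that restrains mTORC1, did not pass either, at 0.035, -0.038 and -0.13 in the same order.

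**Figure D2:**
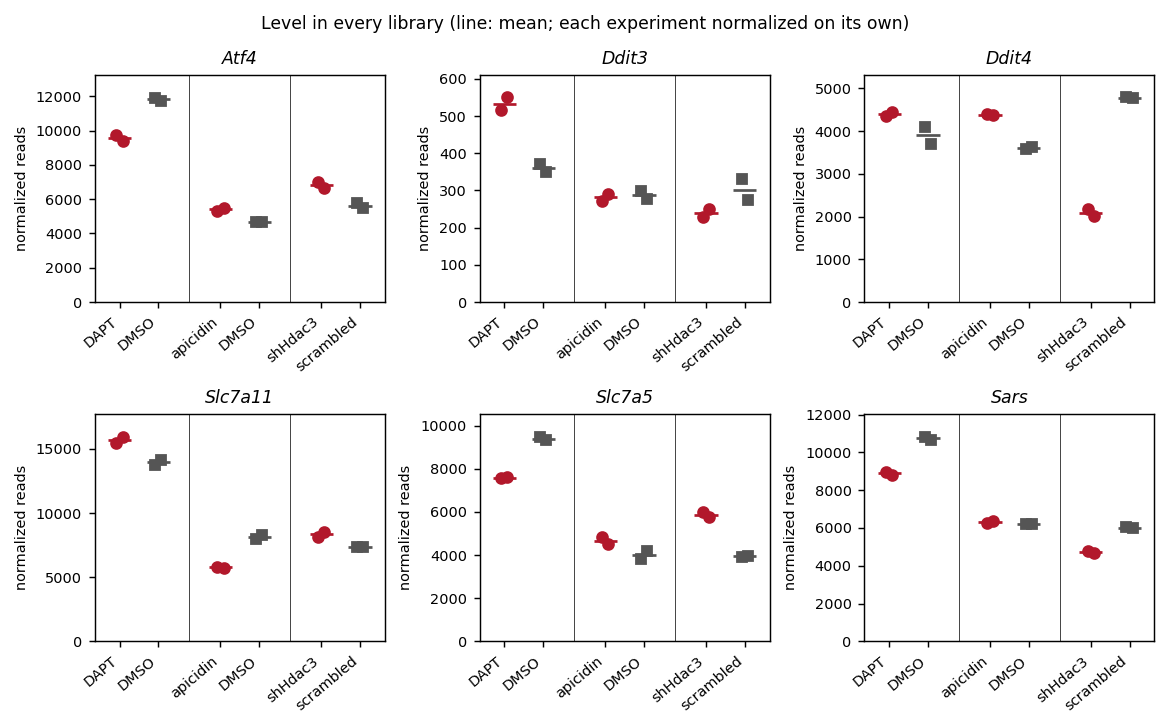
Normalized reads in every library for Atf4, Ddit3, Ddit4, Slc7a11, Slc7a5 and Sars (circles: treated, squares: control, lines: means; each experiment was normalized on its own, so levels are compared within it). Ddit4 stands at 2173 and 2012 in the shHdac3 libraries, against 4790.0 and 4776 in the scrambled libraries, and Atf4 is below its controls with DAPT and above them with apicidin and shHdac3.

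All 8 enzyme genes fell with DAPT (100%), where 23.1% of all tested genes fell. With apicidin 5 fell (62.5%) and none rose, and with shHdac3 3 rose (37.5%) and none fell. Over all tested genes 19.9% fell with apicidin and 22.5% rose with shHdac3. The median log2 fold change of the enzyme genes was -0.47 with DAPT, -0.18 with apicidin and 0.068 with shHdac3. The 8 genes summed to 42280.3 and 41883 normalized reads in the DAPT libraries, against 57341 and 56810.4 in the DMSO libraries, which is 26.3% lower. The apicidin sum was 23554 and 23884 normalized reads in the apicidin libraries, against 26393 and 27264 in the DMSO libraries, 11.6% lower. The hairpin sum was 31249 and 30637 normalized reads in the shHdac3 libraries, against 26784 and 26786 in the scrambled libraries, 15.5% higher.

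Asns, which makes asparagine from aspartate with glutamine as nitrogen donor and is the textbook ATF4 target, had the largest fall of any member with DAPT. It had 164 and 159 normalized reads in the DAPT libraries, against 308 and 289 in the DMSO libraries, 1.84-fold lower (log2 fold change -0.88 ± 0.11, adjusted p = 5.4e-07). With apicidin Asns had 67.8 and 84.6 normalized reads in the apicidin libraries, against 94.3 and 94.1 in the DMSO libraries (log2 fold change -0.31 ± 0.17, adjusted p = 0.17). With the hairpin Asns had 136 and 139 normalized reads in the shHdac3 libraries, against 138 and 159.9 in the scrambled libraries (log2 fold change -0.11 ± 0.14, adjusted p = 0.55). For Asns, both treated libraries were under both controls with DAPT and apicidin, and the groups overlapped with shHdac3. The DAPT change differed from the shHdac3 change (-0.77 ± 0.19, adjusted p = 0.0019) and from the apicidin change (-0.57 ± 0.19, adjusted p = 0.021). The DAPT minus apicidin call of Asns was lost without apicidin replicate 2 (log2 difference -0.41, adjusted p = 0.12), DAPT replicate 2 (log2 difference -0.55, adjusted p = 0.063), or the DAPT experiment's DMSO replicate 1 (log2 difference -0.53, adjusted p = 0.079). Asns, whose window printed above holds TGATGAAA, passed with DAPT and not with apicidin or shHdac3, and the difference between those last changes did not pass (-0.20 ± 0.19, adjusted p = 0.44).

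The mitochondrial one-carbon genes Shmt2 and Mthfd2 fell with DAPT and apicidin and rose with shHdac3. Shmt2, which splits serine into glycine and a folate-bound carbon, had 7915 and 7874 normalized reads in the DAPT libraries, against 12097 and 12054 in the DMSO libraries (log2 fold change -0.61 ± 0.035, adjusted p = 2.9e-12). With apicidin Shmt2 had 5212 and 5269.5 normalized reads in the apicidin libraries, against 5826 and 6047 in the DMSO libraries (log2 fold change -0.18 ± 0.041, adjusted p = 0.0023), and with the hairpin 7292 and 7213 normalized reads in the shHdac3 libraries, against 5319.8 and 5399 in the scrambled libraries (log2 fold change 0.44 ± 0.044, adjusted p = 1.9e-11). The treated Shmt2 levels were lower than both controls with DAPT and apicidin and higher than both controls with shHdac3. Mthfd2, which passes that carbon on within the folate pool, had 3714 and 3732 normalized reads in the DAPT libraries, against 5283 and 5421 in the DMSO libraries (log2 fold change -0.52 ± 0.038, adjusted p = 1.8e-10). Mthfd2 had 1463 and 1479.7 normalized reads in the apicidin libraries, against 1643 and 1606 in the DMSO libraries (log2 fold change -0.14 ± 0.047, adjusted p = 0.023). The level of Mthfd2 was 2676 and 2656 normalized reads in the shHdac3 libraries, against 2022 and 1986 in the scrambled libraries (log2 fold change 0.41 ± 0.047, adjusted p = 6.5e-10). In Mthfd2, both treated values lay under the lower control with DAPT and apicidin and over the higher control with shHdac3. The apicidin call of Mthfd2 was lost without apicidin replicate 1 (log2 fold change -0.13, adjusted p = 0.13), apicidin replicate 2 (log2 fold change -0.15, adjusted p = 0.078), or the apicidin experiment's DMSO replicate 1 (log2 fold change -0.13, adjusted p = 0.08). The change differed between DAPT and shHdac3 in Shmt2 (-1.05 ± 0.051, adjusted p = 9.8e-14) and in Mthfd2 (-0.94 ± 0.056, adjusted p = 3.6e-12), as it did between apicidin and shHdac3 (-0.62 ± 0.051, adjusted p = 3e-09 for Shmt2; -0.55 ± 0.056, adjusted p = 6.3e-08 for Mthfd2).

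Serine is made from a glycolytic intermediate by Phgdh, Psat1 and Psph in turn. Psat1, the transaminase of the middle step, had 9206 and 9036 normalized reads in the DAPT libraries, against 12179 and 12205 in the DMSO libraries (log2 fold change -0.42 ± 0.036, adjusted p = 2e-09). Psat1 had 5231 and 5379.6 normalized reads in the apicidin libraries, against 6199 and 6233 in the DMSO libraries (log2 fold change -0.23 ± 0.041, adjusted p = 0.00027). The level of Psat1 was 6755 and 6767 normalized reads in the shHdac3 libraries, against 5402 and 5402 in the scrambled libraries (log2 fold change 0.32 ± 0.044, adjusted p = 4.2e-08). Both treated Psat1 values lay below both controls with DAPT and apicidin and above both controls with shHdac3. Phgdh fell with DAPT (log2 fold change -0.31 ± 0.036, adjusted p = 2.9e-07) and with apicidin (log2 fold change -0.18 ± 0.043, adjusted p = 0.0026), and did not pass with shHdac3 (log2 fold change 0.018 ± 0.046, adjusted p = 0.79). Psph followed the same calls, with log2 fold change -0.18 ± 0.057, adjusted p = 0.012 for DAPT, log2 fold change -0.30 ± 0.076, adjusted p = 0.0046 for apicidin and log2 fold change 0.085 ± 0.073, adjusted p = 0.37 for shHdac3. Of the exonic bases of Psph, 10.4% lie opposite Cct6a in GENCODE vM21. The DAPT call of Psph was lost without DAPT replicate 2 (log2 fold change -0.17, adjusted p = 0.087), or the DAPT experiment's DMSO replicate 1 (log2 fold change -0.13, adjusted p = 0.11). The apicidin call of Psph was lost without apicidin replicate 1 (log2 fold change -0.24, adjusted p = 0.057). The enzymes of this path thus fell with both compounds, and of them only Psat1 passed with the hairpin; the apicidin and shHdac3 changes differed in Phgdh (-0.20 ± 0.056, adjusted p = 0.0064) and in Psph (-0.39 ± 0.10, adjusted p = 0.0041) as well as in Psat1 (-0.55 ± 0.05, adjusted p = 1.4e-08). The DAPT and shHdac3 changes of Psph also differed (-0.27 ± 0.10, adjusted p = 0.031). The DAPT minus shHdac3 call of Psph was lost without DAPT replicate 1 (log2 difference -0.29, adjusted p = 0.054), DAPT replicate 2 (log2 difference -0.25, adjusted p = 0.09), the DAPT experiment's DMSO replicate 1 (log2 difference -0.21, adjusted p = 0.14), scrambled replicate 2 (log2 difference -0.21, adjusted p = 0.14), or shHdac3 replicate 2 (log2 difference -0.20, adjusted p = 0.15).

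Proline synthesis was represented by Aldh18a1, which makes the first intermediate from glutamate, and Pycr1, which makes proline from it. Aldh18a1 had 4228 and 4316 normalized reads in the DAPT libraries, against 6340.4 and 6318 in the DMSO libraries (log2 fold change -0.57 ± 0.037, adjusted p = 2.9e-11). Aldh18a1 had 3162 and 3073 normalized reads in the apicidin libraries, against 3194 and 3362 in the DMSO libraries (log2 fold change -0.072 ± 0.043, adjusted p = 0.21). The level of Aldh18a1 was 3506 and 3389.6 normalized reads in the shHdac3 libraries, against 3272 and 3386 in the scrambled libraries (log2 fold change 0.051 ± 0.045, adjusted p = 0.4). For Aldh18a1, both treated libraries were under both controls with DAPT and apicidin and over both controls with shHdac3. Pycr1 fell with DAPT (log2 fold change -0.32 ± 0.12, adjusted p = 0.032) and did not pass with apicidin (log2 fold change 0.093 ± 0.14, adjusted p = 0.63) or shHdac3 (log2 fold change -0.31 ± 0.16, adjusted p = 0.13). The DAPT call of Pycr1 was lost without DAPT replicate 2 (log2 fold change -0.31, adjusted p = 0.075), or the DAPT experiment's DMSO replicate 1 (log2 fold change -0.17, adjusted p = 0.39).

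Of the 5 transporters, 4 fell and 1 rose with DAPT, 2 rose and 2 fell with apicidin, and all 5 rose with shHdac3. The 1 that rose with DAPT made 20% of the transporters, near the 20.1% of all tested genes that rose. The 4 that fell made 80%, where 23.1% of all tested genes fell. With apicidin 40% rose and 40% fell, where 18.2% and 19.9% of all tested genes did so. With shHdac3 100% rose, where 22.5% of all tested genes rose. The summed level of the 5 transporters was 9.2% lower with DAPT, 5.9% lower with apicidin and 24.6% higher with shHdac3. Slc7a5 (LAT1), which imports large neutral amino acids such as leucine, had the largest rise of any member with the hairpin, at 5978 and 5763 normalized reads in the shHdac3 libraries, against 3897 and 3981 in the scrambled libraries, 1.49-fold higher (log2 fold change 0.58 ± 0.044, adjusted p = 4.3e-15). With DAPT Slc7a5 had 7562 and 7613 normalized reads in the DAPT libraries, against 9488 and 9318 in the DMSO libraries (log2 fold change -0.31 ± 0.036, adjusted p = 2.6e-07). With apicidin Slc7a5 had 4817 and 4510.1 normalized reads in the apicidin libraries, against 3835 and 4205 in the DMSO libraries (log2 fold change 0.21 ± 0.049, adjusted p = 0.0021). The treated Slc7a5 levels were lower than both controls with DAPT and higher than both controls with apicidin and shHdac3. Slc3a2 (CD98 heavy chain), the partner that carries both Slc7a5 and Slc7a11 to the membrane, had 7716 and 7541 normalized reads in the DAPT libraries, against 8317 and 8261 in the DMSO libraries (log2 fold change -0.12 ± 0.036, adjusted p = 0.0097). Slc3a2 had 4134 and 4129 normalized reads in the apicidin libraries, against 4114 and 4227 in the DMSO libraries (log2 fold change -0.013 ± 0.041, adjusted p = 0.82). The level of Slc3a2 was 4679 and 4766 normalized reads in the shHdac3 libraries, against 3976 and 4031 in the scrambled libraries (log2 fold change 0.24 ± 0.044, adjusted p = 1.9e-05). In Slc3a2, both treated values lay under the lower control with DAPT and over the higher control with shHdac3, and the groups overlapped with apicidin. The DAPT call of Slc3a2 was lost without DAPT replicate 1 (log2 fold change -0.14, adjusted p = 0.057), or DAPT replicate 2 (log2 fold change -0.10, adjusted p = 0.17).

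Slc7a11 (xCT), which imports cystine in exchange for glutamate and also responds to NRF2, had a set of directions that no other transporter shared. With DAPT Slc7a11 had 15435 and 15908 normalized reads in the DAPT libraries, against 13762 and 14161 in the DMSO libraries (log2 fold change 0.17 ± 0.036, adjusted p = 0.00069). With apicidin Slc7a11 had 5780.3 and 5746 normalized reads in the apicidin libraries, against 7938 and 8319.5 in the DMSO libraries (log2 fold change -0.50 ± 0.042, adjusted p = 6.9e-08). With the hairpin Slc7a11 had 8111 and 8548 normalized reads in the shHdac3 libraries, against 7357 and 7359.8 in the scrambled libraries (log2 fold change 0.18 ± 0.045, adjusted p = 0.0011). Both treated Slc7a11 values lay below both controls with apicidin and above both controls with DAPT and shHdac3. The Slc7a11 promoter window and that of Aars, which fell with DAPT and rose with shHdac3, each hold 2 TGATGNAA matches. Slc7a11 was the only transporter that rose with DAPT and the one with the largest fall with apicidin. Its change differed between DAPT and apicidin (0.66 ± 0.055, adjusted p = 2.7e-09) and between apicidin and shHdac3 (-0.67 ± 0.055, adjusted p = 2.6e-09), and the difference between DAPT and shHdac3 did not pass (-0.012 ± 0.055, adjusted p = 0.88).

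Slc1a5 (ASCT2), a carrier of glutamine and other neutral amino acids, had 4689.6 and 4595 normalized reads in the DAPT libraries, against 6553 and 6029 in the DMSO libraries (log2 fold change -0.44 ± 0.041, adjusted p = 1.2e-08). Slc1a5 had 4047 and 3851 normalized reads in the apicidin libraries, against 3269 and 3329 in the DMSO libraries (log2 fold change 0.26 ± 0.043, adjusted p = 0.00013). The level of Slc1a5 was 3815 and 3765 normalized reads in the shHdac3 libraries, against 3001 and 3152 in the scrambled libraries (log2 fold change 0.30 ± 0.045, adjusted p = 4.2e-07). For Slc1a5, both treated libraries were under both controls with DAPT and over both controls with apicidin and shHdac3. Slc7a1 (CAT1), which carries arginine and lysine, had 2500.3 and 2739.5 normalized reads in the DAPT libraries, against 3855 and 4291 in the DMSO libraries (log2 fold change -0.64 ± 0.05, adjusted p = 6.5e-10). Slc7a1 had 1702 and 1787 normalized reads in the apicidin libraries, against 1877 and 1929.6 in the DMSO libraries (log2 fold change -0.13 ± 0.047, adjusted p = 0.042). The level of Slc7a1 was 2477 and 2515 normalized reads in the shHdac3 libraries, against 1862 and 1835 in the scrambled libraries (log2 fold change 0.43 ± 0.048, adjusted p = 2.4e-10). The treated Slc7a1 levels were lower than both controls with DAPT and apicidin and higher than both controls with shHdac3. The apicidin call of Slc7a1 was lost without apicidin replicate 1 (log2 fold change -0.091, adjusted p = 0.31), apicidin replicate 2 (log2 fold change -0.16, adjusted p = 0.052), or the apicidin experiment's DMSO replicate 2 (log2 fold change -0.11, adjusted p = 0.13). Atf4, Slc7a5, Slc1a5 and the synthetase gene Farsb shared 1 pattern, down with DAPT and up with apicidin and with shHdac3. The calls down with DAPT and up with apicidin held in 4 of 41 members (9.76%), against 2.85% of the genes tested in both experiments.

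Of the 20 cytosolic tRNA synthetase genes, 19 fell (95%, where 23.1% of all tested genes fell) and none rose with DAPT. With shHdac3 17 rose (85%, where 22.5% of all tested genes rose), 1 fell (5%, where 19.4% fell) and 2 did not pass. With apicidin 1 rose (Farsb, 5%), 1 fell (Eprs, 5%) and 18 did not pass, where 18.2% of all tested genes rose and 19.9% fell. The log2 fold changes spanned -0.59 to -0.00059 with DAPT (median -0.38), -0.14 to 0.23 with apicidin (median 0.0065) and -0.35 to 0.36 with shHdac3 (median 0.23). The shared size was modest: none of the 20 genes moved by as much as 1 on the log2 scale in any comparison.

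Summed over the 20 genes, the level was 129147 and 128972 normalized reads in the DAPT libraries, against 165539 and 168180.4 in the DMSO libraries. In the apicidin experiment the sum was 82097 and 82705 normalized reads in the apicidin libraries, against 83294 and 82083 in the DMSO libraries. In the hairpin experiment it was 92367 and 91634 normalized reads in the shHdac3 libraries, against 79382 and 80737 in the scrambled libraries. The sums stood apart by group with DAPT and with shHdac3 and overlapped with apicidin.

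**Figure D3:**
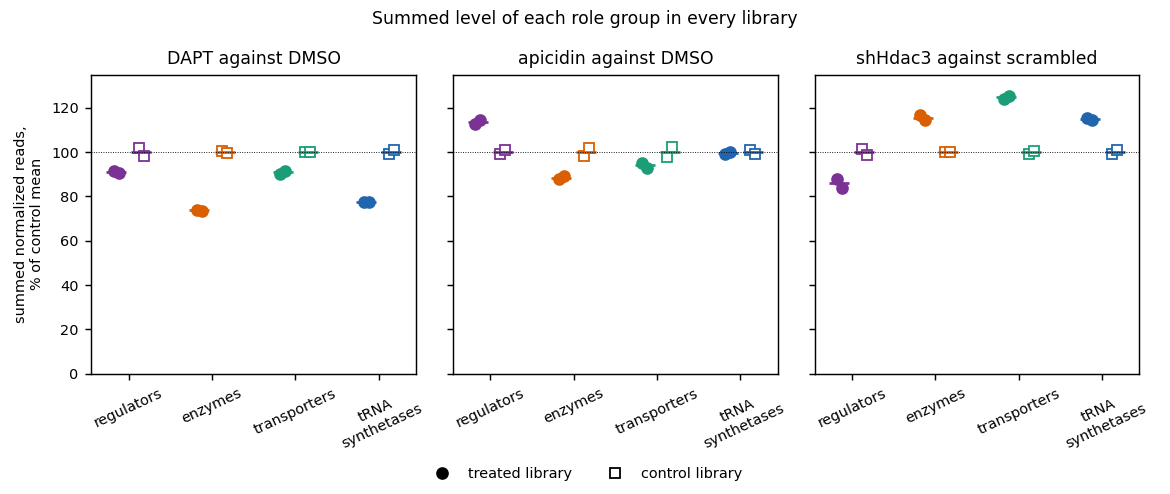
Summed normalized reads of the regulators, enzymes, transporters and cytosolic tRNA synthetases in every library, as a percent of the mean of that experiment's controls (circles: treated, squares: control). The synthetase sums are 22.7% lower with DAPT and 14.9% higher with shHdac3, while their circles and squares interleave with apicidin. The other role groups stand apart with apicidin, with regulators 13.6% higher, enzymes 11.6% lower and transporters 5.9% lower.

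Among the synthetases for branched-chain amino acids and methionine, Iars (isoleucine) had 3838 and 3711 normalized reads in the DAPT libraries, against 5256 and 5471 in the DMSO libraries (log2 fold change -0.51 ± 0.04, adjusted p = 5.1e-10). With apicidin Iars had 2379 and 2336 normalized reads in the apicidin libraries, against 2443 and 2278 in the DMSO libraries (log2 fold change -0.0011 ± 0.046). With the hairpin Iars had 3229.5 and 3108 normalized reads in the shHdac3 libraries, against 2636 and 2583 in the scrambled libraries (log2 fold change 0.28 ± 0.046, adjusted p = 2.3e-06). In Iars, both treated values lay under the lower control with DAPT and over the higher control with shHdac3, and the groups overlapped with apicidin. Lars (leucine) had 5142 and 5078 normalized reads in the DAPT libraries, against 7097 and 7573 in the DMSO libraries (log2 fold change -0.52 ± 0.039, adjusted p = 2.9e-10). With apicidin Lars had 3733 and 3817 normalized reads in the apicidin libraries, against 3929 and 3628 in the DMSO libraries (log2 fold change -0.00022 ± 0.045). With the hairpin Lars had 3919.7 and 3841 normalized reads in the shHdac3 libraries, against 3068 and 2987 in the scrambled libraries (log2 fold change 0.36 ± 0.045, adjusted p = 7.3e-09). Both treated Lars values lay below both controls with DAPT and above both controls with shHdac3, and the groups overlapped with apicidin.

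Vars (valine) had 14374 and 14144 normalized reads in the DAPT libraries, against 16992 and 16948 in the DMSO libraries (log2 fold change -0.25 ± 0.035, adjusted p = 4.2e-06). With apicidin Vars had 10529.9 and 10202 normalized reads in the apicidin libraries, against 10135 and 10841 in the DMSO libraries (log2 fold change -0.016 ± 0.046). With the hairpin Vars had 11093 and 11082 normalized reads in the shHdac3 libraries, against 9342 and 10263 in the scrambled libraries (log2 fold change 0.18 ± 0.047, adjusted p = 0.0018). For Vars, both treated libraries were under both controls with DAPT and over both controls with shHdac3, and the groups overlapped with apicidin. The shHdac3 call of Vars was lost without scrambled replicate 1 (log2 fold change 0.11, adjusted p = 0.14). Mars (methionine) had 5077 and 4979 normalized reads in the DAPT libraries, against 6814 and 6741 in the DMSO libraries (log2 fold change -0.43 ± 0.037, adjusted p = 2.4e-09). With apicidin Mars had 3119 and 3129.5 normalized reads in the apicidin libraries, against 3331 and 3265 in the DMSO libraries (log2 fold change -0.078 ± 0.041). With the hairpin Mars had 3924 and 3971 normalized reads in the shHdac3 libraries, against 3193 and 3253 in the scrambled libraries (log2 fold change 0.29 ± 0.045, adjusted p = 5.6e-07). The treated Mars levels were lower than both controls with DAPT and apicidin and higher than both controls with shHdac3.

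Among the synthetases for aromatic amino acids, Yars (tyrosine) had 4370.0 and 4538 normalized reads in the DAPT libraries, against 6300.4 and 6224 in the DMSO libraries (log2 fold change -0.49 ± 0.038, adjusted p = 4.5e-10). With apicidin Yars had 2749.5 and 2698 normalized reads in the apicidin libraries, against 2988 and 2877 in the DMSO libraries (log2 fold change -0.11 ± 0.043). With the hairpin Yars had 3434 and 3256 normalized reads in the shHdac3 libraries, against 2844 and 2911 in the scrambled libraries (log2 fold change 0.22 ± 0.046, adjusted p = 0.00014). In Yars, both treated values lay under the lower control with DAPT and apicidin and over the higher control with shHdac3. Yars passed with apicidin without the apicidin experiment's DMSO replicate 2 (log2 fold change -0.13, adjusted p = 0.031). Wars (tryptophan), which is also induced by interferon, had 1204 and 1285 normalized reads in the DAPT libraries, against 1548 and 1462 in the DMSO libraries (log2 fold change -0.27 ± 0.053, adjusted p = 0.00022). With apicidin Wars had 1019 and 1039 normalized reads in the apicidin libraries, against 951 and 974 in the DMSO libraries (log2 fold change 0.10 ± 0.054). With the hairpin Wars had 1167 and 1078 normalized reads in the shHdac3 libraries, against 958 and 978 in the scrambled libraries (log2 fold change 0.21 ± 0.058, adjusted p = 0.0027). Both treated Wars values lay below both controls with DAPT and above both controls with apicidin and shHdac3. The shHdac3 call of Wars was lost without shHdac3 replicate 1 (log2 fold change 0.15, adjusted p = 0.074).

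Phenylalanyl-tRNA synthetase is built from 2 kinds of subunit, and their genes gave different calls with apicidin. Farsa (alpha subunit) had 2549.5 and 2475 normalized reads in the DAPT libraries, against 3088 and 2999 in the DMSO libraries (log2 fold change -0.28 ± 0.042, adjusted p = 1.2e-05). With apicidin Farsa had 1776 and 1795 normalized reads in the apicidin libraries, against 1780.4 and 1806 in the DMSO libraries (log2 fold change -0.006 ± 0.045). With the hairpin Farsa had 2314 and 2155 normalized reads in the shHdac3 libraries, against 1856 and 1796 in the scrambled libraries (log2 fold change 0.29 ± 0.05, adjusted p = 4.2e-06). For Farsa, both treated libraries were under both controls with DAPT and over both controls with shHdac3, and the groups overlapped with apicidin. Farsb (beta subunit) had 2825 and 2635 normalized reads in the DAPT libraries, against 3720.1 and 4047 in the DMSO libraries (log2 fold change -0.51 ± 0.047, adjusted p = 7.2e-09). With apicidin Farsb had 1815 and 1969 normalized reads in the apicidin libraries, against 1642 and 1587 in the DMSO libraries (log2 fold change 0.23 ± 0.05, adjusted p = 0.0016). With the hairpin Farsb had 1932 and 1976 normalized reads in the shHdac3 libraries, against 1589 and 1738 in the scrambled libraries (log2 fold change 0.23 ± 0.051, adjusted p = 0.00021). The treated Farsb levels were lower than both controls with DAPT and higher than both controls with apicidin and shHdac3. The apicidin changes of Farsa and Farsb were not tested against each other, and 9.47% of the exonic bases of Farsb lie opposite Sgpp2 in GENCODE vM21.

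Among the synthetases for basic amino acids, Kars (lysine) had 8061 and 8302 normalized reads in the DAPT libraries, against 10142 and 10165 in the DMSO libraries (log2 fold change -0.31 ± 0.036, adjusted p = 2.6e-07). With apicidin Kars had 4836 and 4787 normalized reads in the apicidin libraries, against 5105 and 5070.5 in the DMSO libraries (log2 fold change -0.081 ± 0.04). With the hairpin Kars had 5542 and 5600.2 normalized reads in the shHdac3 libraries, against 5147 and 4959.8 in the scrambled libraries (log2 fold change 0.14 ± 0.044, adjusted p = 0.0085). In Kars, both treated values lay under the lower control with DAPT and apicidin and over the higher control with shHdac3. The shHdac3 call of Kars was lost without scrambled replicate 2 (log2 fold change 0.11, adjusted p = 0.1). Rars (arginine) had 3532 and 3419 normalized reads in the DAPT libraries, against 4441 and 4639.6 in the DMSO libraries (log2 fold change -0.39 ± 0.04, adjusted p = 5.9e-08). With apicidin Rars had 2433 and 2484 normalized reads in the apicidin libraries, against 2397 and 2362 in the DMSO libraries (log2 fold change 0.047 ± 0.043). With the hairpin Rars had 3112 and 2939 normalized reads in the shHdac3 libraries, against 2418 and 2394 in the scrambled libraries (log2 fold change 0.33 ± 0.047, adjusted p = 1.1e-07). Both treated Rars values lay below both controls with DAPT and above both controls with apicidin and shHdac3.

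Hars (histidine), which shares a bidirectional promoter with the mitochondrial gene Hars2 and has 7.97% of its exonic bases opposite it in GENCODE vM21, had 3646 and 3492 normalized reads in the DAPT libraries, against 4579.9 and 4614 in the DMSO libraries (log2 fold change -0.37 ± 0.04, adjusted p = 9.9e-08). With apicidin Hars had 2235 and 2292 normalized reads in the apicidin libraries, against 2485 and 2376 in the DMSO libraries (log2 fold change -0.10 ± 0.044). With the hairpin Hars had 2595 and 2606 normalized reads in the shHdac3 libraries, against 2449.6 and 2253 in the scrambled libraries (log2 fold change 0.15 ± 0.048, adjusted p = 0.012). For Hars, both treated libraries were under both controls with DAPT and apicidin and over both controls with shHdac3. The shHdac3 call of Hars was lost without scrambled replicate 2 (log2 fold change 0.086, adjusted p = 0.27). Hars passed with apicidin without the apicidin experiment's DMSO replicate 2 (log2 fold change -0.13, adjusted p = 0.035).

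Nars (asparagine) had the largest DAPT change of the 20 listed synthetase genes. It had 7613 and 7728 normalized reads in the DAPT libraries, against 11347 and 11681 in the DMSO libraries (log2 fold change -0.59 ± 0.036, adjusted p = 9.4e-12). With apicidin Nars had 4467 and 4570.1 normalized reads in the apicidin libraries, against 4777 and 4585 in the DMSO libraries (log2 fold change -0.051 ± 0.042). With the hairpin Nars had 5472 and 5589.8 normalized reads in the shHdac3 libraries, against 4416 and 4333 in the scrambled libraries (log2 fold change 0.34 ± 0.044, adjusted p = 1.7e-08). The treated Nars levels were lower than both controls with DAPT and apicidin and higher than both controls with shHdac3. Nars charges the amino acid that Asns makes, and the pair held the largest DAPT falls of their role groups. Eprs, a fused enzyme for glutamate and proline, had 10975 and 11133 normalized reads in the DAPT libraries, against 14646 and 15218 in the DMSO libraries (log2 fold change -0.43 ± 0.036, adjusted p = 1.6e-09). With apicidin Eprs had 7002 and 6834 normalized reads in the apicidin libraries, against 7766 and 7472 in the DMSO libraries (log2 fold change -0.14 ± 0.042, adjusted p = 0.014). With the hairpin Eprs had 7772 and 7899 normalized reads in the shHdac3 libraries, against 6638 and 7029 in the scrambled libraries (log2 fold change 0.20 ± 0.045, adjusted p = 0.00033). In Eprs, both treated values lay under the lower control with DAPT and apicidin and over the higher control with shHdac3. The apicidin call of Eprs was lost without apicidin replicate 1 (log2 fold change -0.16, adjusted p = 0.0504), apicidin replicate 2 (log2 fold change -0.12, adjusted p = 0.13), or the apicidin experiment's DMSO replicate 1 (log2 fold change -0.11, adjusted p = 0.066).

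Among the synthetases for small and hydroxyl or thiol amino acids, Gars (glycine) had 11129 and 11012 normalized reads in the DAPT libraries, against 14976 and 14862 in the DMSO libraries (log2 fold change -0.43 ± 0.035, adjusted p = 1.2e-09). With apicidin Gars had 6846 and 7088 normalized reads in the apicidin libraries, against 6738 and 6556 in the DMSO libraries (log2 fold change 0.068 ± 0.042). With the hairpin Gars had 8086 and 8117 normalized reads in the shHdac3 libraries, against 6440.5 and 6447 in the scrambled libraries (log2 fold change 0.33 ± 0.044, adjusted p = 3e-08). Both treated Gars values lay below both controls with DAPT and above both controls with apicidin and shHdac3. Tars (threonine) had 7055 and 6916 normalized reads in the DAPT libraries, against 9331 and 9588 in the DMSO libraries (log2 fold change -0.44 ± 0.036, adjusted p = 1.5e-09). With apicidin Tars had 3908 and 4029 normalized reads in the apicidin libraries, against 4091 and 3779 in the DMSO libraries (log2 fold change 0.013 ± 0.045). With the hairpin Tars had 5272 and 5058 normalized reads in the shHdac3 libraries, against 4053 and 4121 in the scrambled libraries (log2 fold change 0.34 ± 0.045, adjusted p = 2.2e-08). For Tars, both treated libraries were under both controls with DAPT and over both controls with shHdac3, and the groups overlapped with apicidin.

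Aars (alanine) had 9076 and 9161 normalized reads in the DAPT libraries, against 11417 and 11268 in the DMSO libraries (log2 fold change -0.31 ± 0.036, adjusted p = 1.8e-07). With apicidin Aars had 5647 and 5525 normalized reads in the apicidin libraries, against 5407 and 5448 in the DMSO libraries (log2 fold change 0.041 ± 0.041). With the hairpin Aars had 6455 and 6803 normalized reads in the shHdac3 libraries, against 5208 and 5489 in the scrambled libraries (log2 fold change 0.31 ± 0.045, adjusted p = 2.1e-07). The treated Aars levels were lower than both controls with DAPT and higher than both controls with apicidin and shHdac3. Cars (cysteine) had 3387 and 3402 normalized reads in the DAPT libraries, against 4358 and 4442 in the DMSO libraries (log2 fold change -0.37 ± 0.039, adjusted p = 5.4e-08). With apicidin Cars had 2027 and 2143 normalized reads in the apicidin libraries, against 1997 and 1878 in the DMSO libraries (log2 fold change 0.11 ± 0.048). With the hairpin Cars had 2180.5 and 2213 normalized reads in the shHdac3 libraries, against 1837 and 1930.1 in the scrambled libraries (log2 fold change 0.22 ± 0.049, adjusted p = 0.00021). In Cars, both treated values lay under the lower control with DAPT and over the higher control with apicidin and shHdac3. Cars passed with apicidin without the apicidin experiment's DMSO replicate 1 (log2 fold change 0.15, adjusted p = 0.021). In GENCODE vM21 14.3% of the exonic bases of Aars are shared with Exosc6 on the same strand.

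Sars, Qars and Dars were the 3 of the 20 without both calls, down with DAPT and up with shHdac3. They were singled out after their values were seen. Sars (serine) fell with DAPT, where it had 8986 and 8803 normalized reads in the DAPT libraries, against 10840.3 and 10661 in the DMSO libraries (log2 fold change -0.27 ± 0.036, adjusted p = 1.6e-06). With apicidin Sars had 6244 and 6375 normalized reads in the apicidin libraries, against 6215 and 6189.5 in the DMSO libraries (log2 fold change 0.025 ± 0.041, adjusted p = 0.67). With the hairpin it fell too, with 4761 and 4664 normalized reads in the shHdac3 libraries, against 6054 and 5972 in the scrambled libraries (log2 fold change -0.35 ± 0.044, adjusted p = 6.5e-09). Sars was the only 1 of the 20 that fell with shHdac3. Its change differed between apicidin and shHdac3 (0.38 ± 0.051, adjusted p = 4.7e-06), and the difference between DAPT and shHdac3 did not pass (0.078 ± 0.051, adjusted p = 0.22). Qars (glutamine) had 5269 and 5399 normalized reads in the DAPT libraries, against 5374 and 5297 in the DMSO libraries (log2 fold change -0.00059 ± 0.038, adjusted p = 0.99). With apicidin Qars had 3422 and 3348 normalized reads in the apicidin libraries, against 3097 and 3207 in the DMSO libraries (log2 fold change 0.10 ± 0.042, adjusted p = 0.063). With the hairpin Qars had 3288 and 3226 normalized reads in the shHdac3 libraries, against 3043 and 3079 in the scrambled libraries (log2 fold change 0.09 ± 0.045, adjusted p = 0.11). Both treated Qars values lay above both controls with apicidin and shHdac3, and the groups overlapped with DAPT. Qars passed with apicidin without the apicidin experiment's DMSO replicate 2 (log2 fold change 0.13, adjusted p = 0.036). Among the 20, only Qars did not pass with DAPT or in the test of DAPT against apicidin (-0.10 ± 0.054, adjusted p = 0.14). Dars (aspartate) fell with DAPT (log2 fold change -0.30 ± 0.039, adjusted p = 1.6e-06) and did not pass with apicidin (log2 fold change 0.027 ± 0.043, adjusted p = 0.65) or shHdac3 (log2 fold change 0.10 ± 0.045, adjusted p = 0.081). Its DAPT and shHdac3 changes differed (-0.39 ± 0.06, adjusted p = 9.2e-06), as in most of the 20. Dars passed with shHdac3 without shHdac3 replicate 2 (log2 fold change 0.14, adjusted p = 0.042).

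Set side by side, the DAPT and shHdac3 calls ran in opposite directions for most members. Of the 41 genes, 25 (61.0%) fell with DAPT and rose with shHdac3, where 9.36% of the 12388 genes tested in both did so. These 25 made up 75.8% of the 33 members that fell with DAPT, where 63.4% of all 41 members rose with shHdac3. They made up 96.2% of the 26 that rose with shHdac3, where 80.5% of all 41 fell with DAPT. The 25 were 17 synthetase genes, the enzyme genes Psat1, Shmt2 and Mthfd2, the transporter genes Slc7a1, Slc7a5, Slc3a2 and Slc1a5, and Atf4. Ddit3 and Ddit4 had the mirrored calls, up with DAPT and down with shHdac3 (4.88% of members, near the 6.01% of all genes that did so). Sars fell in both (2.44% of members, 3.72% of genes) and Slc7a11 rose in both (2.44% of members, 4.29% of genes). The experiments shared no libraries, and they differ in agent, in time and in vehicle, so agent, time and vehicle cannot be told apart in this contrast.

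**Figure D4:**
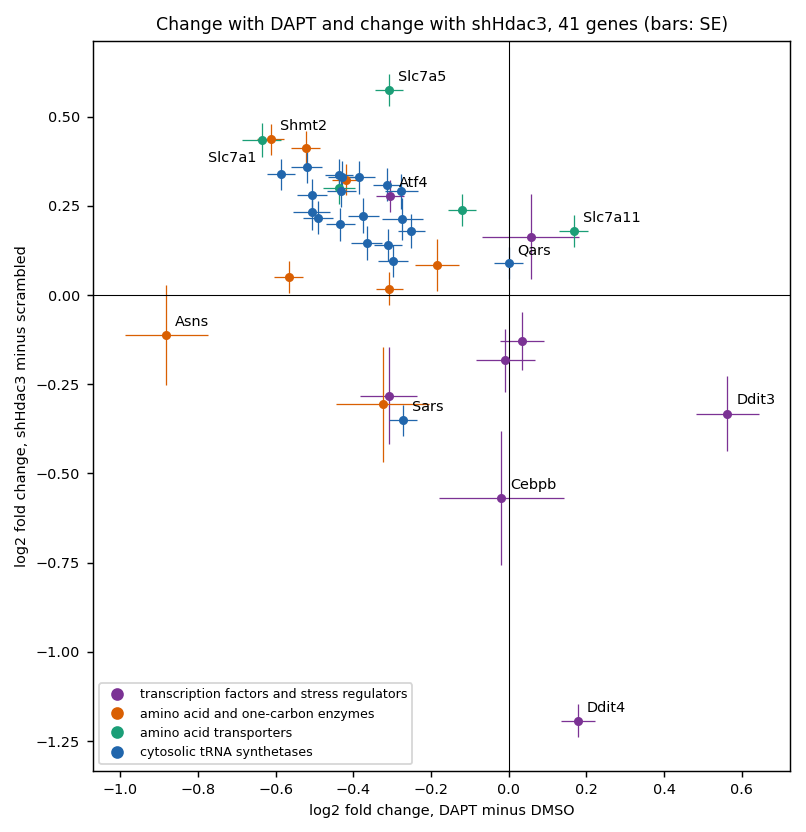
Log2 fold change with DAPT (horizontal) against that with shHdac3 (vertical) for the 41 genes, coloured by role, with standard errors as bars. Most synthetases, transporters and enzymes sit at the upper left, and Ddit3 and Ddit4 at the lower right. Sars is at the lower left, as are Asns, Pycr1 and Trib3, whose shHdac3 changes did not pass.

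Between the compounds, 8 members fell with both (Trib3, Phgdh, Psat1, Psph, Shmt2, Mthfd2, Slc7a1 and Eprs), 19.5% of the 41, where 7.36% of the 12379 genes tested in both did so. Of the 8, 5 are the enzyme genes of serine and mitochondrial one-carbon metabolism. Ddit4 was the 1 member that rose with both (2.44% of members, 6.59% of genes). Slc7a11 was the 1 that rose with DAPT and fell with apicidin (2.44% of members, 3.93% of genes). Ddit4 was also the 1 member that rose with apicidin and fell with shHdac3 (2.44% of members, near the 2.51% of all genes that did so). No member fell with both apicidin and shHdac3 by limma's test, where 7.15% of the 12233 genes tested in both did so.

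The differences between responses were tested directly on the 12 libraries. The DAPT change lay below the shHdac3 change in 30 of 41 members and above it in 2 (Ddit3 and Ddit4), where 25.1% and 21.7% of all 12204 genes tested did so. The median difference was -0.58 for the members, against 0.013 for all genes. It lay below in 18 of 20 synthetase genes, Qars and Sars being the exceptions. With upper-quartile scaling Sars passed as higher (difference 0.15, adjusted p = 0.018), and the calls over all genes split 3341 higher to 2437 lower, against 2651 to 3069 as reported.

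The DAPT change lay below the apicidin change in 28 members and above it in 3 (Atf5, Ddit3 and Slc7a11), where 19.3% and 17.9% of all genes did so. All synthetase genes but Qars were among those below, 19 of 20, with a median difference of -0.36. Apicidin and the hairpin are both meant to reduce HDAC3 activity. The apicidin change lay below the shHdac3 change in 24 members and above it in 2 (Ddit4 and Sars), where 20.3% and 15.8% of all genes did so. It lay below in 14 of 20 synthetase genes, with a median difference of -0.27. The apicidin minus shHdac3 call of Vars was lost without apicidin replicate 2 (log2 difference -0.17, adjusted p = 0.069), the apicidin experiment's DMSO replicate 2 (log2 difference -0.15, adjusted p = 0.088), or scrambled replicate 1 (log2 difference -0.13, adjusted p = 0.13). Apicidin acts on several deacetylases, and its dose and exposure were not matched to the hairpin. Both calls agreed in direction for Atf4, Slc7a5, Slc1a5 and Farsb, which rose with apicidin and with shHdac3 (9.76% of members, near the 7% of all genes that did so). They were opposed for Psat1, Shmt2, Mthfd2, Slc7a1, Slc7a11 and Eprs, which fell with apicidin and rose with shHdac3 (14.6% of members, where 3.46% of genes did so).

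Genes around the members were described from lists, with no test of a list and no fits that leave out a library. Their counts stand against the same shares of all tested genes as the members' counts: 20.1% rose and 23.1% fell with DAPT, 18.2% rose and 19.9% fell with apicidin, and 22.5% rose and 19.4% fell with shHdac3. Of 17 mitochondrial tRNA synthetase genes, which serve protein synthesis inside mitochondria, 11 fell and 1 rose with DAPT (median -0.25), 4 fell and 2 rose with apicidin (median 0.021), and 7 rose and 1 fell with shHdac3 (median 0.10). Ears2 fell most with DAPT among those that passed (log2 fold change -0.57 ± 0.092, adjusted p = 2.8e-05), followed by Yars2 (log2 fold change -0.51 ± 0.063, adjusted p = 7.1e-07), and Yars2 rose with shHdac3 (log2 fold change 0.34 ± 0.076, adjusted p = 0.00027) as did Pars2 (log2 fold change 0.35 ± 0.095, adjusted p = 0.0022). Lars2 had 24501 and 116598 normalized reads in the apicidin libraries, against 151846 and 208414 in the DMSO libraries (log2 fold change -1.73 ± 0.39, adjusted p = 0.0021). With DAPT Lars2 had 31469 and 93874 normalized reads in the DAPT libraries, against 184217 and 37793 in the DMSO libraries (log2 fold change -0.62 ± 0.42, adjusted p = 0.25), a spread between replicates far wider than that of the cytosolic genes.

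Of 7 genes for scaffold proteins of the multisynthetase complex and other partners of the synthetases, 6 fell with DAPT and none rose, 5 fell with apicidin and none rose, and 2 rose and 1 fell with shHdac3. The scaffold genes Eef1e1 (log2 fold change -0.63 ± 0.062, adjusted p = 1.9e-08) and Aimp2 (log2 fold change -0.53 ± 0.056, adjusted p = 7.6e-08) fell with DAPT and rose with shHdac3 (log2 fold change 0.17 ± 0.063, adjusted p = 0.024 for Eef1e1; log2 fold change 0.19 ± 0.064, adjusted p = 0.012 for Aimp2). Eef1e1 fell with apicidin (log2 fold change -0.51 ± 0.07, adjusted p = 2.1e-05). Tarsl2, another cytosolic threonyl-tRNA synthetase gene, fell with apicidin (log2 fold change -0.72 ± 0.075, adjusted p = 9.5e-07) and with shHdac3 (log2 fold change -0.57 ± 0.081, adjusted p = 1.2e-07), whereas Tars rose with shHdac3.

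Among 27 other genes linked to ATF4, 22 could be tested with DAPT, 18 with apicidin and 22 with shHdac3. Of these 10 fell and 5 rose with DAPT, 7 fell and 6 rose with apicidin, and 8 rose and 4 fell with shHdac3. The shares that rose with DAPT (22.7%) and fell with shHdac3 (18.2%) were close to those of all genes. Bcat1, a transaminase of branched-chain amino acids, had 1167 and 1179.6 normalized reads in the DAPT libraries, against 2418 and 2378 in the DMSO libraries (log2 fold change -1.03 ± 0.047, adjusted p = 4.6e-14), and it rose with shHdac3 (log2 fold change 0.50 ± 0.058, adjusted p = 1.1e-09). Eif4ebp1, the translation repressor 4E-BP1, fell with DAPT (log2 fold change -0.79 ± 0.044, adjusted p = 1.9e-12), as did the transaminase genes Got1 (log2 fold change -0.67 ± 0.047, adjusted p = 8.1e-11) and Gpt2 (log2 fold change -0.60 ± 0.065, adjusted p = 9.9e-08). With apicidin the glycine transporter gene Slc6a9 (log2 fold change -0.65 ± 0.087, adjusted p = 1.3e-05), Pck2 of mitochondrial gluconeogenesis (log2 fold change -0.62 ± 0.065, adjusted p = 9.8e-07) and the one-carbon gene Mthfd1l (log2 fold change -0.54 ± 0.046, adjusted p = 6.9e-08) fell. With shHdac3 Shmt1, the cytosolic counterpart of Shmt2, rose (log2 fold change 0.65 ± 0.049, adjusted p = 1.3e-15), as did the neutral amino acid transporter gene Slc38a1 (log2 fold change 0.49 ± 0.045, adjusted p = 1.1e-12), and the bZIP gene Jdp2 fell (log2 fold change -0.49 ± 0.11, adjusted p = 0.00045).

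The genes that set eIF2alpha phosphorylation upstream of ATF4 were mixed: of 10 genes 2 rose and 5 fell with DAPT, 4 rose and 1 fell with apicidin, and 6 rose and 3 fell with shHdac3. The share that rose with DAPT (20%) was close to that of all genes. Ppp1r15a (GADD34), which recruits the phosphatase that reverses the mark, rose with apicidin (log2 fold change 0.47 ± 0.062, adjusted p = 1.3e-05) and fell with shHdac3 (log2 fold change -0.61 ± 0.079, adjusted p = 1.1e-08). Eif2ak3 (PERK), the kinase of endoplasmic reticulum stress, rose with DAPT (log2 fold change 0.34 ± 0.044, adjusted p = 1.2e-06) and apicidin (log2 fold change 0.25 ± 0.05, adjusted p = 0.00063) and fell with shHdac3 (log2 fold change -0.44 ± 0.056, adjusted p = 7.3e-09). Those directions are the ones of Ddit4. Eif2s1, which encodes eIF2alpha itself, fell with DAPT (log2 fold change -0.37 ± 0.041, adjusted p = 1.4e-07), and Impact, an inhibitor of the kinase GCN2, rose with shHdac3 (log2 fold change 0.50 ± 0.081, adjusted p = 1.5e-06).

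The XBP1 and ATF6 arms of the unfolded protein response, which act beside ATF4 in endoplasmic reticulum stress, did not follow the synthetases. Of 16 genes 7 rose and none fell with DAPT (median 0.10), with Syvn1 (log2 fold change 0.43 ± 0.06, adjusted p = 3.8e-06) and Edem1 (log2 fold change 0.23 ± 0.038, adjusted p = 2.8e-05) of protein degradation at the endoplasmic reticulum changing most. With apicidin 2 rose and 3 fell, Atf6 the most (log2 fold change 0.69 ± 0.05, adjusted p = 1e-08), and Xbp1 fell (log2 fold change -0.29 ± 0.052, adjusted p = 0.00027). With shHdac3 3 rose and 5 fell, among them the protein disulphide isomerase genes Pdia6 (log2 fold change -0.42 ± 0.045, adjusted p = 1.2e-10) and Pdia4 (log2 fold change -0.26 ± 0.045, adjusted p = 5.5e-06). The shares that fell with apicidin (18.8%) and rose with shHdac3 (18.8%) were close to those of all genes.

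**Figure D5:**
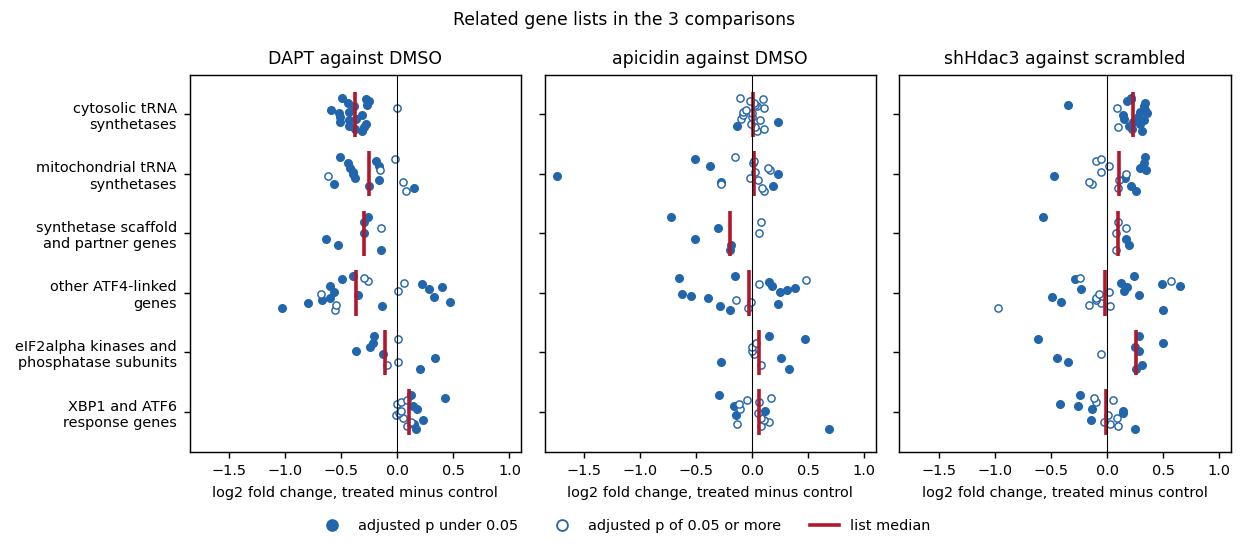
Log2 fold change of every tested gene of the cytosolic tRNA synthetase list and of the 5 related lists in each comparison (filled: adjusted p under 0.05, bar: list median). The DAPT medians are below 0 for every list but that of the XBP1 and ATF6 response genes (0.10), and the shHdac3 median of the cytosolic synthetases is 0.23.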

How the data were processed

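Per the labels' protocols, RNA of Beko cells went into ribosomal RNA-depleted, stranded total RNA libraries. The submitters' processing notes name the mm9 build, FastQC, Bowtie2, TopHat and DESeq2, without roles. Which counter, gene models and strand setting were used is not given in the sources used here.

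There is 1 table per experiment. Per the file headers each holds a normalized signal per gene and library. The deposited tables also hold the authors' mean signal, log2 fold change with its standard error, test statistic (score), p-values and adjusted p-values. All deposited signal values were whole reads divided by 1 factor per library (100% of them, with a relative tolerance of 1e-06), so whole reads were recovered and depths are their sums. The precision of each level is that of 2 libraries per group. Each table was normalized on its own, so levels were compared within a table only. No column was left unmatched to a sample.

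Each treatment was tested against its own 2 controls by limma 3.58.1 under R 4.3.3, trend option on, two-sided. Input was log2(value + 1) of genes that reached 10 in at least 2 of 4 libraries, with Benjamini-Hochberg adjustment at 0.05 over all genes. Every adjusted p is from this test unless another is named. The pseudocount of 1 understates changes of low genes. Differences between changes were tested in 1 limma fit of all 12 libraries in 6 groups; no control library is shared. The scripts were tested on simulated data. Alternatives used edgeR 4.0.16, DESeq2 1.42.0, other scalings, filters and pseudocounts, a replicate block and left-out libraries.

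Values in every library were printed for Atf4, for members that passed with an absolute log2 fold change of 0.5 or more, and for members that passed in opposite directions, and also for Sars and Qars and for the listed genes Bcat1 and Lars2, chosen after their values were seen. From related lists the members with the largest changes were named. In the marker lists, 1 gene is not reported here. The members and lists were chosen with earlier results of these data known. Promoter windows are RefSeq's for GRCm38.p6, and exon overlaps are from GENCODE vM21 on GRCm38. Replicate numbers were not used to pair libraries: the labels state no pairing, and deviations of same-numbered libraries correlated at 0.019, 0.039 and 0.011.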

Additional observations from a re-analysis of the deposited data

How the results depend on the processing

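No member's change, or difference between changes, took the opposite sign where it passed as reported or in the alternative run. Where it passed in neither, the sign changed in 65 cases over all comparisons and runs. With upper-quartile scaling the all-gene balance reversed: 3056 genes rose and 2499 fell with DAPT, against 2584 and 2962 as reported. With shHdac3 2312 rose and 2913 fell, against 2811 and 2417. For DAPT minus apicidin 2459 lay above and 2031 below, against 2186 and 2350. For apicidin minus shHdac3 2273 lay above and 2016 below, against 1924 and 2483. The members' median was then -0.28 with DAPT and 0.18 with shHdac3. With DESeq2 on recovered reads 6 members fell with apicidin and 2 with shHdac3, and the authors' deposited table likewise had 6 and 2, against 10 and 4 as reported; fewer genes passed overall. Over all genes 1239 rose and 1420 fell with apicidin and 1695 rose and 1393 fell with shHdac3 by DESeq2, against 2265, 2481, 2811 and 2417 as reported. By adjusted p, 1646 genes rose with DAPT in the authors' deposited table, against 2584 as reported, 1136 rose and 1329 fell with apicidin, and 1694 rose and 1267 fell with shHdac3. With 1 library left out, the members' median log2 fold change was -0.33 to -0.32 with DAPT. It was -0.062 to -0.014 with apicidin and 0.19 to 0.24 with shHdac3. With each treatment some of these fits had fewer members that fell. The members' median difference was -0.36 to -0.32 for DAPT minus apicidin and -0.59 to -0.55 for DAPT minus shHdac3. For apicidin minus shHdac3 it was -0.26 to -0.23. With the replicate number as a block the member counts were unchanged: 3 rose and 33 fell with DAPT, 5 rose and 10 fell with apicidin, and 26 rose and 4 fell with shHdac3, so the block changed no such count. With a treated or control group reduced to 1 library, that library was assumed to vary like the others.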

Other observations

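Of the 20 synthetase genes, 8 encode synthetases of the multisynthetase complex, in which several of these enzymes are held together by scaffold proteins, and 12 encode synthetases outside it. This split was chosen after the values were seen. In the complex 7 of 8 fell with DAPT (median -0.41) and 6 of 8 rose with shHdac3 (median 0.24). Outside it 12 of 12 fell with DAPT (median -0.37), and with shHdac3 11 of 12 rose and 1, Sars, fell (median 0.23). Over all tested genes 23.1% fell with DAPT, and 22.5% rose and 19.4% fell with shHdac3. Qars and Dars, which did not pass with shHdac3, both belong to the complex. With apicidin the median was -0.00067 in the complex and 0.019 outside it.

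Of the 10 members with TGATGNAA in the RefSeq window, Trib3, Chac1, Pycr1 and Aars were not printed. Aars held 2 matches, beginning 112 bases before the start and at base 10 from it. The Aars window and the printed Iars and Tars windows also hold CACGTG, as do the windows of Aldh18a1 and Farsb.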
